A study of Homo sapiens with 10 samples.

Results

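Of the 10 bulk RNA-seq libraries of the series, 7 compare cultures made with the proprioceptor protocol (3 libraries) and with the nociceptor protocol (4 libraries), chosen by the protocol in each sample's title. All 7 come from RUES2, a human embryonic stem cell line in wide use, edited to carry a tdTomato reporter at AVIL, a gene of sensory neurons, and all were taken at day 60 in vitro. The groups share line, reporter and age and differ in the differentiation protocol, whose agents the labels do not list. The labels name neither a cell sort, nor a clone number for the edited line, nor separate differentiations behind the biological replicates, so p-values here measure the spread between libraries, part of which may be technical. The series also holds 3 mechanoreceptor libraries, which entered the fits to help estimate that spread and, where COL1A1 was in the model, its slopes. The series' design text names 10x Genomics, but the sample labels describe a bulk full-length cDNA kit and the files hold 1 value per gene and library, so the libraries were treated as bulk. Named genes received between 27891186 and 44541262 estimated counts in each of the 7 libraries.

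Proprioceptors are the dorsal root ganglion neurons that report muscle length and tension, and nociceptors are those that report damaging heat, force and chemicals. Both arise from neural crest, the embryonic tissue that also gives rise to Schwann cells, satellite glia and much of the connective tissue of the head. Cultures derived by way of neural crest can therefore hold glia and collagen-producing cells beside the neurons, and a bulk library reads all of them at once. In such a library, fewer cells of a type and less RNA per cell cannot be told apart.

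Collagen content varied widely among the libraries of both protocols. COL1A1, the main chain of type I collagen, was at a TPM (a level corrected for transcript length and scaled to the same total in every library) of 392, 506, 1984 and 17.0 in nociceptor libraries 1 to 4 and of 1.77, 536 and 7.81 in proprioceptor libraries 1 to 3. Nociceptor libraries 1 to 3 and proprioceptor library 2 lay above 100 TPM, and the other 3 libraries lay below it, so the protocols overlapped. The mean log2(TPM + 1) was 8.18 ± 2.86 (SD, n = 4) in nociceptor and 4.56 ± 3.99 (SD, n = 3) in proprioceptor libraries, a difference of -3.62 that did not exceed the spread between libraries (two-sided exact permutation test, p = 0.229, with 0.0286 as the smallest p that 35 groupings allow).

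Markers of glia followed the same division of the libraries. The 10 genes of the Schwann and satellite glia list, among them the calcium-binding protein S100B and the myelin protein PMP22, summed to 4806, 3393, 6053 and 597 TPM in nociceptor and 180.3, 2745 and 188 TPM in proprioceptor libraries. PMP22 alone was at 691, 1191, 1359 and 209.8 against 73.7, 662 and 129. The 7 pan-neuronal genes ran the other way, with sums of 7527, 5981, 5296 and 11868 against 13341, 9087 and 16838. These sums, most of which come from the neurofilament gene NEFL and the growth-cone gene STMN2, were highest in the 3 libraries that had the least collagen. Not all members followed that order: SNAP25, of the synaptic fusion machinery, was highest in nociceptor library 1, at 545 TPM against 253 in proprioceptor library 1. Of the cell type lists, all 11 tested fibroblast genes and all 10 glial genes had a lower fitted level in proprioceptor libraries, with median log2 fold changes of -2.20 (the value of COL1A1 itself, a member) and -1.73, and all 7 pan-neuronal genes a higher one, with a median of 0.96. Over all 16130 genes tested the median was 0.03, and 52.2% of genes had a higher fitted level. TNNT1, a troponin of slow muscle and the most abundant gene of the muscle list, stayed at or below 12.8 TPM, while MYOD1, the factor that defines skeletal muscle, and AIF1, a macrophage gene, were listed at 0 in all 7 libraries.

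The 7 genes of the autonomic neuron list, tested as markers of another neuron type, had a median log2 fold change of -0.04, and of 1.93 with COL1A1 as a covariate. The part of autonomic RNA in the gene differences below was not tested.

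**Figure D1:**
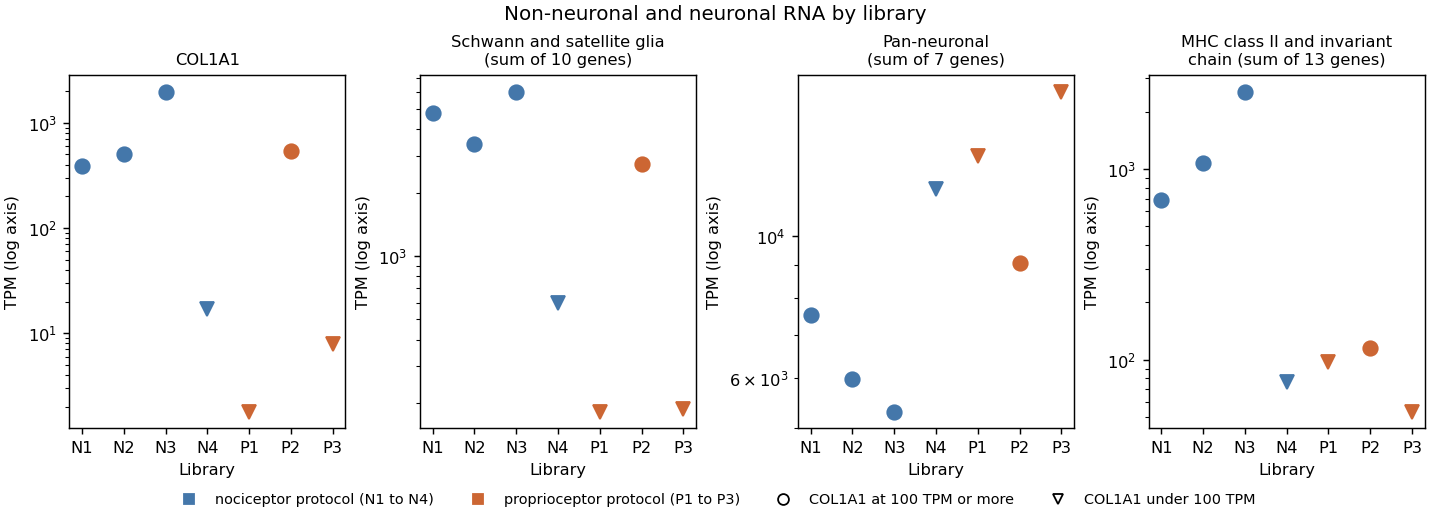
TPM of COL1A1 and summed TPM of 3 gene lists (log axes) in nociceptor libraries N1 to N4 (blue) and proprioceptor libraries P1 to P3 (orange); each point is 1 library, circles mark libraries with COL1A1 at 100 TPM or more and triangles the others. COL1A1 and the glial list are high in N1, N2, N3 and P2, the pan-neuronal list is highest in P3, P1 and N4, and the MHC class II list is high in N1, N2 and N3 but not in P2.

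No gene passed the test between the protocols across all genes. With edgeR's quasi-likelihood test and Benjamini-Hochberg adjustment, 0 of 16130 genes (0.00%) had an adjusted p under 0.05, and the smallest adjusted p was 0.665, so every gene named below has an adjusted p of at least that value in this test. At an unadjusted p under 0.05 there were 998 genes (6.19%), of which 492 had a higher level in proprioceptor libraries (3.05%) and 506 a lower one (3.14%). This share is close to the share that the threshold itself sets. DESeq2, run on the same counts as an alternative, called 31 genes (0.192%), 12 higher (0.0744%) and 19 lower (0.118%). All 31 were among the 998. The TPM of the protocols did not overlap, in the sense that all 3 proprioceptor libraries lay above or all 3 lay below the 4 nociceptor libraries, for 240 genes that were higher (1.49%) and 234 that were lower (1.45%). With 35 groupings of the libraries, random order would give a share of 0.0286 in each direction. Neither share exceeds that, so a lack of overlap below describes the values and is not a call. With the level of COL1A1 in each library as a covariate, 460 genes were at an unadjusted p under 0.05 (2.85%) and none passed the adjusted threshold in edgeR. Of the 998 genes, 996 kept their direction with the covariate and 279 stayed under 0.05. The genes below are described from these fits by their values, and a log2 fold change is always proprioceptor minus nociceptor, from estimated counts, with its standard error after ±.

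Genes of antigen presentation to helper T cells had the largest median difference of the gene lists described here, as a group of 13 genes that was singled out after its values were seen. MHC class II molecules are pairs of an alpha and a beta chain that carry peptides to the cell surface. CD74 is the invariant chain that escorts them, HLA-DM and HLA-DO govern their loading, and CIITA is the coactivator that switches the set on. Their promoters are known for a shared module upstream of the start site that includes a CCAAT-type box, bound by the factor NF-Y. The RefSeq promoter table (GRCh38.p14) had an entry for 10 of the 13 genes. In the 120 bases before the start site, CTGATTGG, searched on both strands, stood in 4 of the 10, against 2.81% of all 35116 windows of that length, and the shorter ATTGG, which is part of it, stood on one strand or the other in 9 of the 10, against 20.4% of all windows. The sequences below are reference sequence, read 5′ to 3′ on the gene's strand, and are shown because 4 of them carry the longer box and 2 the shorter one. Capitals mark ATTGG or its reverse complement CCAAT.
HLA-DRB1, chr6:32589849-32589968, minus strand: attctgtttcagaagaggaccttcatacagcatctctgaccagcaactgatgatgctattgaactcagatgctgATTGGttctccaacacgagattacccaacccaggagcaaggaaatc
HLA-DRB5, chr6:32530288-32530407, minus strand: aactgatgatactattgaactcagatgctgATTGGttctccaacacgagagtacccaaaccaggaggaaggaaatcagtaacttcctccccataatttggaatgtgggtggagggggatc
HLA-DQB1, chr6:32666658-32666777, minus strand: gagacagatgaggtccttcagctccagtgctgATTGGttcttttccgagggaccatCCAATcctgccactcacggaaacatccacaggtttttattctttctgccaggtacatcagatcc
HLA-DMA, chr6:32953098-32953217, minus strand: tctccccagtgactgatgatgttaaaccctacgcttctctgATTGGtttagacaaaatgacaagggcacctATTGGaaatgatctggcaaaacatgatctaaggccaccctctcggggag
HLA-DOA, chr6:33009592-33009711, minus strand: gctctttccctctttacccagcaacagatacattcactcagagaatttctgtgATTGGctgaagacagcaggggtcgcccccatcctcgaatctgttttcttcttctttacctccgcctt
CD74, chr5:150412911-150413030, minus strand: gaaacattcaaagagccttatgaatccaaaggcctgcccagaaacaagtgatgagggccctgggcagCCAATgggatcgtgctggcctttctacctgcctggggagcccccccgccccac
In HLA-DRB1, HLA-DRB5, HLA-DQB1 and HLA-DMA the first capitals end the longer box. HLA-DOA has the shorter box alone, and CD74 carries it on the other strand. A match describes the letters in the window and was not measured as a bound site.

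HLA-DRA, the alpha chain of HLA-DR, was at 129, 200.3, 411 and 0.00 TPM in nociceptor libraries 1 to 4 and at 0.255, 9.46 and 0.00 TPM in proprioceptor libraries 1 to 3. CD74 was at 177, 259, 694 and 0.484 against 0.416, 20.3 and 0.579. Both genes were high in the 3 collagen-rich nociceptor libraries and at or near 0 in the 3 collagen-poor libraries, and in proprioceptor library 2 they were above these but far below the nociceptor libraries with a like COL1A1 level. The log2 fold changes were -6.06 ± 2.81 and -5.49 ± 2.44. HLA-DPA1, the alpha chain of HLA-DP, followed the same order, at 58, 77.6, 169.6 and 7.46 against 5.81, 8.28 and 2.30, with a log2 fold change of -3.93 ± 0.95 (DESeq2 adjusted p = 0.00245).

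HLA-DQA1, the alpha chain of HLA-DQ (chromosome 6, 32637406 to 32655272), was at 21.4, 27.0, 83.2 and 5.10 TPM in nociceptor and at 0.761, 2.71 and 2.10 in proprioceptor libraries, and here nociceptor library 4 too was above all proprioceptor libraries. Its estimated counts were 1189, 853, 1687 and 729 against 153, 384 and 410. The gap is narrower in counts than in TPM, which also depends on the estimated transcript mix, and the log2 fold change from counts was -1.79 ± 0.42 (DESeq2 adjusted p = 0.0359). HLA-DOA, a chain of the loading regulator HLA-DO, was at 2.24, 4.02, 4.81 and 0.898 against 0.382, 1.55 and 1.44. CIITA was low, at 1.11, 1.42, 3.32 and 1.57 against 0.813, 0.582 and 0.714, but did not overlap in TPM. Its estimated counts, 166, 171, 301 and 137 against 73, 127 and 140, overlapped. Its log2 fold change from counts was -0.72 ± 0.44.

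Other class II genes were less clear. HLA-DPB1, the partner of HLA-DPA1, was at 31.6, 59.7, 119 and 26.1 against 52.1, 28.4 and 24.9, overlapped between the protocols, and turned to a log2 fold change of 0.04 without nociceptor library 3. The beta chains HLA-DRB1, HLA-DRB4 and HLA-DRB5 are near-identical copies whose reads kallisto divides by estimation, so their separate values are uncertain. HLA-DRB1 was at 161, 264, 653 and 11.9 against 16.7, 22.0 and 11.5, and its 11.5 to 16.7 TPM stood in libraries where HLA-DRA was at most 0.255. HLA-DRB5 was at 37.6, 68.2, 169 and 0.00 against 0.00, 2.52 and 0.00. HLA-DPB2, a pseudogene beside HLA-DPB1 that is not among the 13, ran the other way without overlap, with a log2 fold change of 3.06 ± 0.84, and is uncertain for the same reason.

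Across the 13 genes, all were highest in nociceptor library 3, and in 11 the 3 collagen-rich nociceptor libraries were above every proprioceptor library. That count leaves out nociceptor library 4, and the share of all genes that meet it was not computed. With all 4 nociceptor libraries, 2 of the 13 did not overlap in TPM, HLA-DQA1 and CIITA (1.45% of all genes were lower without overlap). The summed TPM of the 13 was 685, 1079, 2546 and 76.7 against 97.7, 115 and 53.1. The median log2 fold change was -3.76 (all genes 0.03), -1.46 with the COL1A1 covariate and -2.97 without nociceptor library 3. With the covariate all 13 still had a lower fitted level in proprioceptor libraries. Of the macrophage list, a cell type that carries class II at its surface, AIF1 was listed at 0 in all 7 libraries and CD14 in 4, and the sum of the 5 genes was between 2.31 and 8.92 TPM in nociceptor and between 0.997 and 4.36 in proprioceptor libraries. CD68, a lysosomal protein that is not confined to macrophages, made up most of the sum in nociceptor libraries 2 and 3, at 6.14 and 8.15 TPM.

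**Figure D2:**
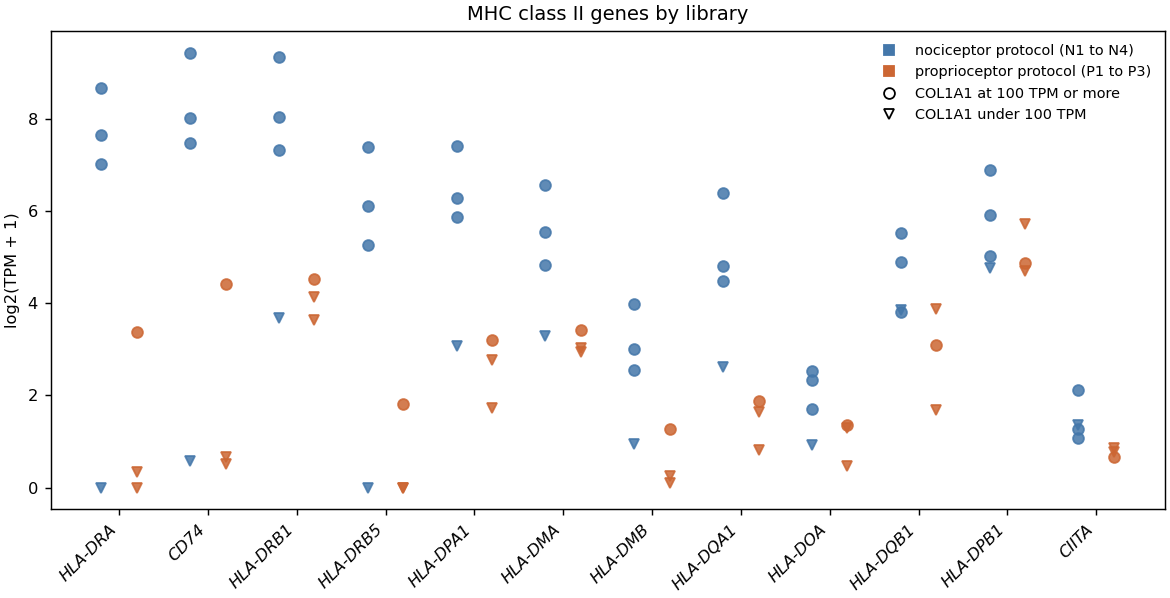
Levels of 12 MHC class II genes as log2(TPM + 1) in nociceptor (blue, 4 libraries) and proprioceptor (orange, 3 libraries) cultures; each point is 1 library, circles mark COL1A1 at 100 TPM or more and triangles COL1A1 under 100 TPM. For HLA-DRA and CD74 the 3 blue circles lie above all other libraries, the orange circle is next, and the triangles are at or near 0.

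Interferon-response and MHC class I genes also had lower medians in proprioceptor libraries, and these became -0.47 and 0.12 with COL1A1 in the model. Of 20 interferon-response genes tested, 17 had a lower fitted level, with a median of -1.73 that became -0.87 without nociceptor library 3. IFI44L, an interferon-induced protein, was at 9.45, 0.396, 4.05 and 0.241 TPM against 0.142, 0.322 and 0.0381, with a log2 fold change of -3.56 ± 1.02 (DESeq2 adjusted p = 0.0392), and its high values were in nociceptor libraries 1 and 3 alone. IFITM1, a membrane protein that blocks virus entry, was at 151, 28.5, 282 and 5.57 against 3.66, 26.8 and 4.59. The 12 MHC class I genes all had a lower fitted level, with a median of -1.1, and 9 of the 12 had a higher one with the covariate (median 0.12). B2M, the light chain shared by all class I molecules, was at 5674, 5125, 6902 and 651 against 599.9, 3709 and 446. It thus lay between 446 and 651 TPM in the collagen-poor libraries of both protocols and at 3709 TPM or more in the collagen-rich ones, whereas HLA-DRA and CD74 were also apart within the collagen-rich libraries.

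Outside the lists, the 15 genes of smallest p that were higher in proprioceptor libraries held 10 that did not overlap (1.49% of all genes) and 8 that DESeq2 called (0.0744%), counts that the choice by p on this contrast largely fixes. DESeq2 gave no adjusted p for GPR149, NR5A2 and SST. HS3ST4, a sulfotransferase that finishes heparan sulfate chains (chromosome 16, 25691959 to 26137685), was at 2.17, 2.91, 2.74 and 4.74 TPM in nociceptor and 7.21, 12.3 and 30.0 in proprioceptor libraries, with no overlap. Its log2 fold change was 2.44 ± 0.52, 1.80 with the COL1A1 covariate and 1.84 without proprioceptor library 3 (DESeq2 adjusted p = 0.0197 over all 10 libraries). DOK6, an adaptor of receptor tyrosine kinases that binds RET, was at 35, 34, 30 and 51 against 63.6, 95.6 and 83.8, with little spread within each protocol, a log2 fold change of 1.16 ± 0.27 and a range of 1.08 to 1.28 when single libraries were left out. NCALD, a neuronal calcium sensor, was at 63.9, 59.9, 51.7 and 97.6 against 109.9, 126 and 277 (1.5 ± 0.37).

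SST, the neuropeptide somatostatin (chromosome 3, 187668912 to 187670394), was at 75.2, 629.6, 457 and 597 TPM in nociceptor and 13358, 1389.5 and 1884 TPM in proprioceptor libraries. Proprioceptor library 1 stood far above the rest, and even the lowest proprioceptor library was above all nociceptor libraries. The log2 fold change was 4.29 ± 1.1 with all libraries and 1.65 without proprioceptor library 1. RASD1, a small GTPase induced by glucocorticoids, was also highest there, at 3.37, 12.2, 9.43 and 9.78 against 35.2, 25.3 and 17.4 (1.91 ± 0.63).

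Proprioceptor library 3 held the highest proprioceptor value of 10 of the 15 higher genes, and in 9 of them it was more than 2 times both other proprioceptor libraries. LHFPL3, a tetraspan membrane protein, was at 0.650, 0.776, 0.964 and 1.08 against 1.28, 4.16 and 38.9, so that its log2 fold change of 3.97 ± 0.83 became 1.85 without that library. GPR149, an orphan receptor, was at 0.0447, 0.167, 0.118 and 0.280 against 0.302, 1.12 and 24.0 (5.71 ± 1.33, and 2.26 without it). NPNT, the matrix protein nephronectin, was at 1.1, 0.920, 0.671 and 1.55 against 2.42, 2.30 and 32.0 (3.94 ± 0.95, and 1.38 without it). These genes did not overlap between the protocols, yet most of the size of each difference came from 1 library.

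DACH1, a transcription cofactor, overlapped, at 1.80, 2.16, 2.72 and 7.21 against 11.8, 5.23 and 63.6. TMC3, of the transmembrane channel-like family, was at 1.70, 1.21, 1.09 and 1.20 against 2.34, 3.81 and 2.63 (1.35 ± 0.33). KCNK12, a 2-pore-domain potassium channel subunit, was at 1.26, 1.58, 3.11 and 4.19 against 2.34, 8.92 and 8.07, and overlapped (1.54 ± 0.39, and 1.56 with the COL1A1 covariate). EPCAM, an adhesion molecule of the epithelium list, did not overlap, at 13.1, 20.9, 14.6 and 16.3 against 32.3, 30.7 and 53 (1.48 ± 0.35). Of the 6 epithelium genes tested, 2 had a higher fitted level, so EPCAM was not accompanied by the list: KRT19, a keratin, was at 1.73, 18.2, 10.4 and 1.6 against 1.5, 1.26 and 0.351.

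**Figure D3:**
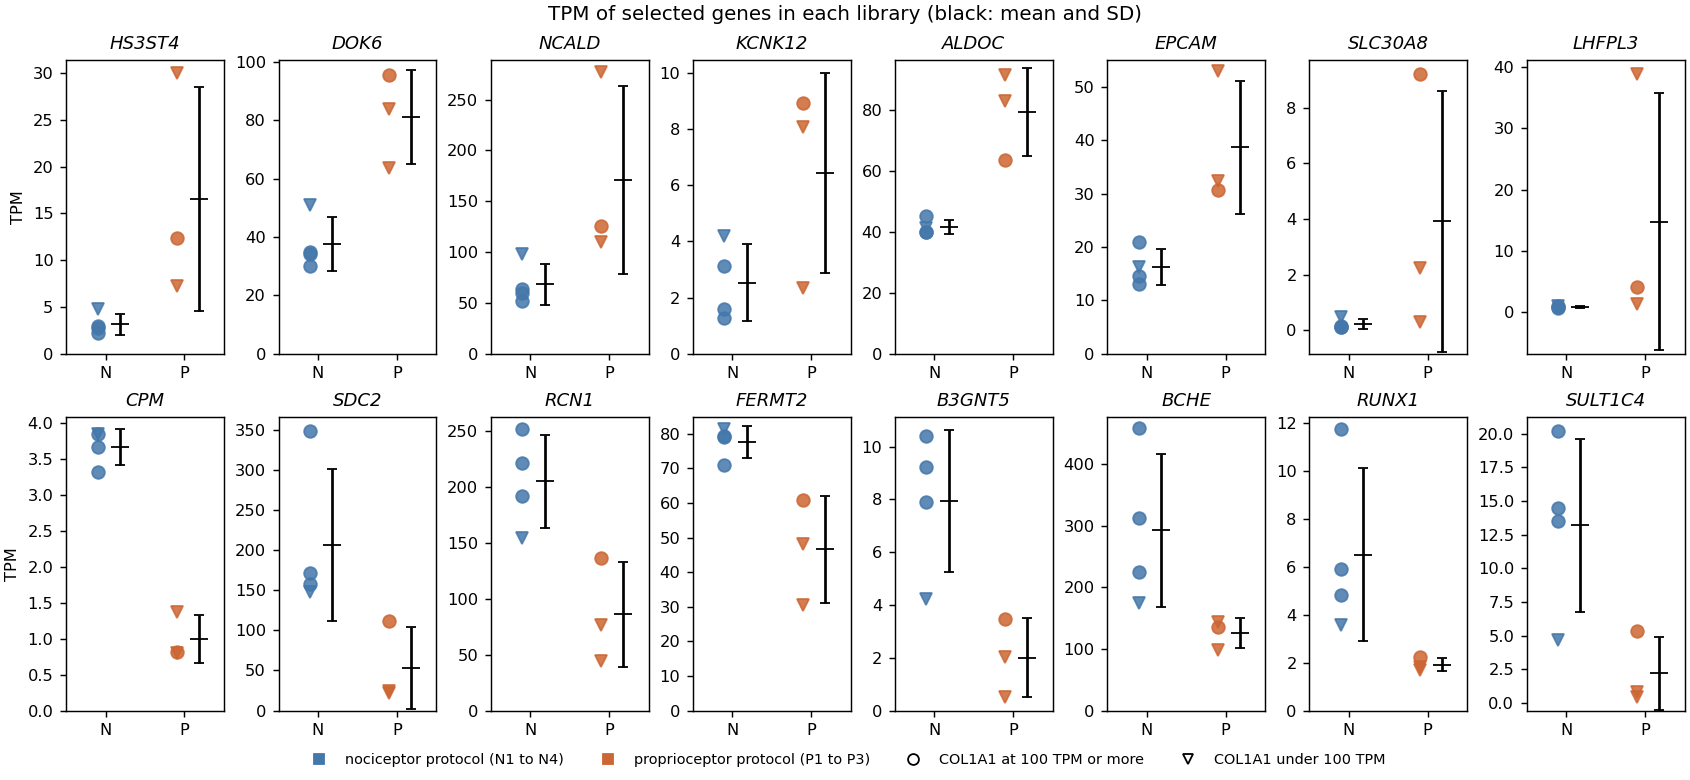
TPM of 16 genes in nociceptor (N, blue, 4 libraries) and proprioceptor (P, orange, 3 libraries) cultures on linear axes; each point is 1 library, circles mark COL1A1 at 100 TPM or more, triangles COL1A1 under 100 TPM, and black marks give the mean and SD. CPM, RCN1, FERMT2, SDC2, BCHE and RUNX1 do not overlap, DOK6 and ALDOC are evenly higher in P, and the spread of LHFPL3 and SLC30A8 in P comes from 1 library each.

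CPM, the membrane enzyme carboxypeptidase M, which trims peptides such as bradykinin (chromosome 12, 68842197 to 68963469), was at 3.32, 3.67, 3.86 and 3.84 TPM against 0.796, 0.812 and 1.38. In TPM it was as high in collagen-poor nociceptor library 4 as in the others, and as low in collagen-rich proprioceptor library 2 as in library 1. Its estimated counts, at 136, 134, 104 and 52 against 16, 29 and 18, were low and less even, with nociceptor library 4 the lowest and proprioceptor library 2 the highest of their protocols, and the log2 fold change was -2.16 ± 0.47, -1.79 with the COL1A1 covariate (DESeq2 adjusted p = 0.0197). FERMT2 (kindlin-2), which activates integrins, was at 79.0, 70.9, 79.3 and 81.4 against 30.4, 61.0 and 48.3 (-1.01 ± 0.28). RCN1, a calcium-binding protein of the endoplasmic reticulum, was at 252, 192, 221 and 154 against 44.5, 136 and 76.6 (-1.20 ± 0.30). In TPM the 3 genes did not overlap between the protocols.

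SDC2, the heparan sulfate proteoglycan syndecan-2, was at 348, 158, 171 and 148 against 24.4, 112 and 22.1 (-2.05 ± 0.53, -1.72 with the covariate, DESeq2 adjusted p = 0.0481). Its protocol means ran opposite to those of HS3ST4, an enzyme of heparan sulfate, but not library by library. Proprioceptor library 2 was above library 1 for both genes, at 12.3 against 7.21 TPM for HS3ST4. A link between the genes was not tested. B3GNT5, an enzyme of lacto-series glycolipids, was at 10.4, 7.90, 9.24 and 4.23 against 0.510, 3.49 and 2.03 (-2.45 ± 0.67). BCHE, butyrylcholinesterase, was at 459, 224, 313 and 175 against 98.1, 135 and 144 (-1.31 ± 0.37). CALB1, the calcium buffer calbindin, was at 12.4, 35.9, 11.8 and 1.80 against 0.719, 1.43 and 0.917 (-4.45 ± 1.14, DESeq2 adjusted p = 0.00245), with nociceptor library 4 close to the proprioceptor libraries.

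CLSPN and EXO1, genes of DNA replication checkpoints and repair, were at 3.30, 2.58, 3.51 and 1.08 against 0.360, 0.965 and 0.698 and at 5.97, 3.65, 6.72 and 1.92 against 0.537, 1.74 and 0.181. For both, nociceptor library 4 was the lowest of its protocol, as it was for 12 of the 15 lower genes. Of these 15, chosen by p on this contrast and including the class II genes HLA-DQA1, HLA-DPA1, HLA-DRB1 and HLA-DOA, 12 did not overlap in TPM (1.45% of all genes) and DESeq2 called 8 (0.118%). Among the 12, CALB1, B3GNT5, CLSPN, NFE2L3 and EXO1 overlapped in estimated counts, which are not scaled for depth. Of the 11 sensory neuron genes tested, 9 had a higher fitted level in proprioceptor libraries (median 0.65). RUNX1, a transcription factor that nociceptors use and 1 of the other 2, was at 11.8, 4.81, 5.92 and 3.58 against 1.83, 2.22 and 1.69 and did not overlap (-1.70 ± 0.47, -1.27 with the covariate). LRIG3, a negative regulator of receptor signalling, was at 3.63, 4.09, 3.85 and 4.67 TPM against 0.190, 1.25 and 0.712, but its estimated counts were 320, 390.0, 296 and 72 against 7, 97 and 45 and so overlapped.

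Of the 19 glycolysis genes tested, 16 had a higher fitted level, with a median of 0.50 (all genes 0.03) that was 0.37 with the COL1A1 covariate, 0.17 without proprioceptor library 1 and 0.13 with library weights, and 5 did not overlap (against 1.49% of all genes). ALDOC, the neural aldolase, was at 45.2, 40.0, 40.2 and 41.4 against 83.2, 63.6 and 91.6 (1.20 ± 0.32). GPI, glucose-6-phosphate isomerase, was at 128, 207, 193 and 214 against 278, 293 and 305 (0.86 ± 0.31). ENO2, the neuronal enolase, was at 200.5, 247, 237 and 551 against 425, 509 and 719, and overlapped through nociceptor library 4, the most neuronal of its protocol. The list of glucose, lactate and creatine transport had no such lean, with 6 of 13 genes at a higher fitted level and a median of -0.03. Within it, the mitochondrial creatine kinase genes CKMT1A and CKMT1B, near-identical copies whose values are uncertain one by one, had log2 fold changes of 1.25 ± 0.47 and 1.27 ± 0.43, whereas SLC16A1, a lactate transporter, and GATM, an enzyme of creatine synthesis, were at -0.75 ± 0.28 and -1.21 ± 0.54.

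Genes of protein synthesis and turnover had small differences that 1 library decided. Of the 85 cytosolic ribosomal protein genes tested, 82 had a higher fitted level with a median of 0.62. The median was 0.09 with the COL1A1 covariate, -0.24 without proprioceptor library 1 and -0.17 with library weights, so the direction was not stable. RPL38, a protein of the large subunit, was at 468, 899, 759 and 1050.1 against 1801, 714 and 1044. Proteasome subunits, with 34 of 37 at a higher fitted level and a median of 0.34, had a median of -0.21 without that library and -0.13 with library weights.

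Lysosome, p53-target and YAP-target genes had the opposite lean, with smaller medians once COL1A1 was in the model. None of the 18 lysosomal genes, 16 p53 targets and 17 YAP and TEAD targets tested had a higher fitted level, with medians of -0.73, -0.98 and -2.05 that were -0.14, -0.34 and -0.50 with the covariate. CDKN1A, the p53-induced inhibitor of the cell cycle, was at 285, 688, 649.8 and 66.4 against 47.9, 267 and 70.9. CCN2, a matricellular protein induced by YAP, was at 112, 222, 71.4 and 20.4 against 5.89, 60.8 and 4.33. For CCN2 and CDKN1A the 4 collagen-rich libraries were the 4 highest, whatever the protocol.

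Matrix genes were alike. Of the 15 collagen crosslinking and hydroxylation genes none had a higher fitted level (median -1.21, -0.25 with the covariate), and of the 22 proteoglycan and matricellular genes 1 had (median -1.46, -0.39 with the covariate). SPP1, osteopontin, was at 94.8, 262, 118 and 5.23 against 6.47, 25.0 and 3.16 (-3.34 ± 1.14). ADAMTS2, the protease that trims procollagen, was at 2.86, 2.93, 7.82 and 1.5 against 0.349, 1.42 and 0.570 and narrowly did not overlap in TPM (-2.59 ± 0.73, DESeq2 adjusted p = 0.0441). Its estimated counts, 386, 254, 760 and 95 against 26, 115 and 41, overlapped. ADAMTS3, which shares that procollagen-trimming activity, ran the other way but overlapped, at 0.490, 0.269, 0.0743 and 0.0636 against 0.609, 0.461 and 1.37 (2.29 ± 0.64).

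**Figure D4:**
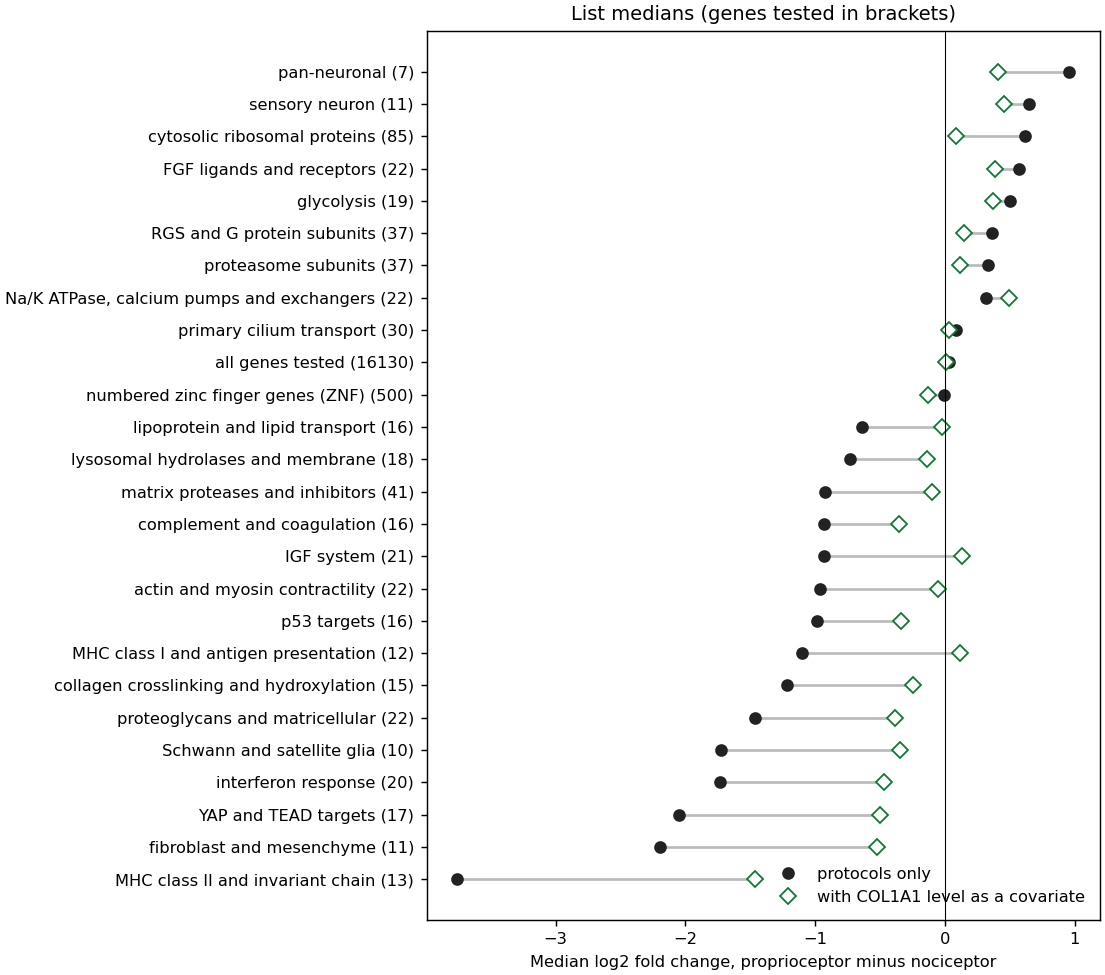
Median log2 fold change (proprioceptor minus nociceptor) of 25 gene lists and of all genes tested, in the fit with protocols only (black circles) and with the COL1A1 level as a covariate (green diamonds), with the number of genes tested in brackets. The glial list moves from -1.73 to -0.35, the class II list from -3.76 to -1.46 and the glycolysis list from 0.50 to 0.37, beside a median over all genes of 0.03; the fibroblast list holds COL1A1 itself, whose value the covariate fixes.

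Zinc handling was split. Metallothioneins are small proteins that bind zinc and copper, ZnT transporters (SLC30) move zinc out of the cytosol and ZIP transporters (SLC39) move it in. Over the 27 genes of the list the median was -0.22 and 8 had a higher fitted level. MT3, the neural metallothionein, was at 34.6, 86.7, 55.2 and 85.1 against 491, 99.1 and 232 and did not overlap (2.53 ± 0.73, and 1.11 without proprioceptor library 1). MT1X was at 66.9, 91.1, 72.1 and 88.3 against 307, 104 and 127 (1.61 ± 0.59). SLC30A8 (ZnT8), which loads zinc into secretory granules, was at 0.139, 0.122, 0.149 and 0.498 against 2.24, 9.21 and 0.318 (3.86 ± 0.87, 4.29 with the covariate, DESeq2 adjusted p = 0.0057). It overlapped, as the lowest proprioceptor value, 0.318, was below the highest nociceptor value, 0.498. SLC39A8 (ZIP8) was at 8.07, 6.73, 6.83 and 6.47 against 3.85, 4.87 and 4.06 TPM without overlap, but its estimated counts, 586, 383, 338 and 105 against 49, 157 and 57, overlapped. The log2 fold change of -1.83 ± 0.69 comes from these counts and was -0.87 with the covariate.

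Receptor and growth-factor genes varied singly. HTR2C, a serotonin receptor, was at 0.00, 0.384, 0.323 and 0.0926 against 3.05, 3.60 and 0.644 and did not overlap (3.89 ± 1.1, DESeq2 adjusted p = 0.0339). Of the 25 amine receptor genes tested, 15 had a higher fitted level (median 0.20). MC4R, a melanocortin receptor, was at 0.596, 6.61, 4.82 and 6 against 26.4, 21.2 and 2.30, and BDKRB2, the bradykinin B2 receptor, was at 0.466, 0.758, 0.201 and 1.05 against 0.636, 1.53 and 3.52. Both overlapped. FGF12, an intracellular FGF that binds sodium channels, was at 52.0, 36.5, 20.6 and 44.0 against 129.9, 79.1 and 60.6 (1.11 ± 0.46), and 15 of the 22 FGF genes tested had a higher fitted level (median 0.57). PAPPA2, a protease of IGF-binding proteins, was at 0.330, 0.0903, 1.27 and 0.233 against 0.187, 0.280 and 21.5, and its log2 fold change of 3.80 became -0.15 without proprioceptor library 3.

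Adhesion genes ran both ways. SLITRK1, a synaptic adhesion protein, was at 3.09, 2.20, 2.14 and 1.75 against 1.53, 10.8 and 10.1 (1.66 ± 0.49, 2.10 with the covariate). CNTN4 and CNTN6, contactins of axons, were at 54.4, 6.65, 15 and 28.6 against 3.44, 11 and 3.33 and at 25.3, 5.32, 4.19 and 8.91 against 1.21, 6.91 and 1.12. Their log2 fold changes were -1.99 ± 0.60 and -1.84 ± 0.73, and -2.03 and -1.56 with the covariate. All 3 overlapped between the protocols.

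COL1A1 itself accompanied far more genes than the protocol did. With protocol means held and all 10 libraries fitted, 1929 of 16130 genes (12.0%) had a slope on the COL1A1 level at an edgeR adjusted p under 0.05, 1621 rising with it (10.0%) and 308 falling (1.91%). In the 7 nociceptor and proprioceptor libraries alone there were 926 of 15821 (5.85%). The 1929 included 9 of the 10 glial genes, 14 of the 17 YAP targets, 12 of the 15 collagen crosslinking genes and 10 of the 18 lysosomal genes, and 6 of the 13 class II genes, all rising, and 3 of the 7 pan-neuronal genes, falling. Of the 998 genes at an unadjusted p under 0.05 between the protocols, 199 were also among the 1929, and 149 of these rose with COL1A1 and were lower in proprioceptor libraries.

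With the COL1A1 covariate, the 8 higher genes of smallest p outside the lists were all highest in proprioceptor library 2, the one collagen-rich library of its protocol. LGI1, a secreted synaptic protein, was at 22.2, 20.4, 13.2 and 2.66 against 11, 63 and 29.6. SEMA3A, a repellent of sensory axons, was at 10.9, 10.5, 9.03 and 2.74 against 6.20, 39.1 and 7.31. GPR50, a melatonin-receptor relative, was at 1.22, 14.8, 29.5 and 0.699 against 2.74, 236 and 1.18. In libraries other than number 2 the proprioceptor values lay within the nociceptor range for SEMA3A and GPR50. The log2 fold changes with the covariate were 2.53, 1.69 and 4.30, and in the fit without covariate GPR50 turned from 2.55 to -2.06, and DKK2, a WNT inhibitor at 3.68 TPM in that library, from 1.66 to -1.34, when library 2 was left out. OSTN (musclin), a secreted peptide, was at 0.691, 0.374, 0.709 and 0.471 against 1.07, 19.5 and 1.62, and did not overlap.

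The 8 lower genes chosen in the same way included HLA-DRB4 and HLA-DRB5, which were listed at 0 in nociceptor library 4. SULT1C4, a sulfotransferase, was at 20.2, 13.5, 14.5 and 4.66 against 0.435, 5.31 and 0.831 (-1.89 with the covariate), so that within collagen-rich and within collagen-poor libraries all nociceptor values were above all proprioceptor values. STON1, an adaptor of endocytosis, was at 1.61, 0.997, 1.32 and 0.725 against 0.0364, 0.632 and 0.124 (-1.61). HOXC8, a patterning gene of the trunk, was at 1.17, 1.5, 0.927 and 5.66 against 0.310, 0.265 and 1.14 (-2.71), and its neighbour HOXC9 was at 4.47, 6.65, 7.07 and 8.73 against 0.576, 2.51 and 1.5 and did not overlap. CPM and SDC2 were also among the 8. The protocols did not overlap within either COL1A1 class, collagen-rich or collagen-poor, for 649 genes that were higher (4.02%) and 975 that were lower (6.04%) in proprioceptor libraries. The collagen-rich class holds nociceptor libraries 1 to 3 and proprioceptor library 2, and the collagen-poor class nociceptor library 4 and proprioceptor libraries 1 and 3. In classes this small, random order often gives such a separation, so neither these counts nor the order of SULT1C4 measures a protocol difference at matched collagen.

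At the level of transcripts, 0 of 76818 (0.00%) passed edgeR's adjusted threshold and 3132 (4.08%) were at an unadjusted p under 0.05. Usage, the share of a gene's counts in each of its transcripts, was called for 8 of 11647 genes (0.0687%), with 650 (5.58%) at an unadjusted p under 0.05, by a test that was liberal on simulated counts. In 7 of the 8 the leading transcript had 0 estimated counts, as rounded to whole numbers, in every library of one protocol, the exception being AP2B1. SPRY4-201, the longer form of an inhibitor of receptor tyrosine kinase signalling, was at 1.72, 1.68, 0.938 and 5.47 TPM in nociceptor libraries and listed at 0 in all 3 proprioceptor libraries, with 240.0, 215, 99 and 541 estimated counts against 0, 0 and 0, while SPRY4-202 was at 3.57, 7.91, 7.36 and 14.8 against 3.56, 8.18 and 2.18. MYO9B-206, of an unconventional myosin, was at 0.820, 0.868, 0.909 and 0.808 in nociceptor libraries and at 8.19e-05 or less in proprioceptor libraries. PNKD-203 ran the other way, at 2.61e-06 or less in nociceptor libraries and at 1.06, 2.38 and 0.928 in proprioceptor libraries, where PNKD-201, at 79.5 to 134 TPM, was the main form. AP2B1-217, of a clathrin adaptor, was at 20.1, 14.5 and 29.3 in nociceptor libraries 1 to 3 and listed at 0 in library 4, against 0.00, 0.157 and 3.77e-06, so it also followed the division by COL1A1 within the nociceptor protocol. These are pseudoalignment estimates among overlapping transcripts, whose own error is not in the deposited values.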

How the data were processed

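Bulk RNA-seq of 10 libraries was used, each assigned to its protocol from its title. Trizol extraction, the Clontech Ultra Low v4 kit for cDNA and NexteraXT for the libraries are named per the labels' protocols, with paired reads of 75 nt. The kit does not mark strand, so overlapping antisense genes cannot be told apart. Per the submitters' processing notes, kallisto 0.50.1 and GRCh38.p14 were used. The authors deposited estimated counts, as whole numbers, and TPM, per gene and per transcript. The summing to genes is not given in the sources used here. A blank gene entry, with 0.733% to 1.66% of the counts and 2.81% to 8.80% of the TPM, was left out, which leaves 30357 named genes.

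Counts were tested with edgeR 4.0.16 in R 4.3.3 (filterByExpr, 16130 genes; TMM; a quasi-likelihood model with a mean per protocol over all 10 libraries; 7 residual degrees of freedom; two-sided; Benjamini-Hochberg threshold 0.05). The common biological coefficient of variation was 0.550. Transcript usage was tested with diffSpliceDGE on the 162573 of 207133 transcripts (78.5%) matched to a gene in GENCODE. The scripts were tested on simulated data. Alternatives were DESeq2 1.42.0, limma 3.58.1 (voom with library weights, or log2(TPM + 1)), other scalings and filters, the COL1A1 log2 CPM as a covariate, a block by COL1A1 at 100 TPM, and leaving out single libraries. No library repeated another of its protocol (lowest chi-square per degree of freedom 131). Tables and promoters were joined by symbol with the RefSeq table of GRCh38.p14.

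The members and gene lists were chosen with earlier results of these data known, so lists are described by counts and medians only. Named genes are the 4 of smallest p in a list (all, where 5 or fewer were tested), COL1A1 and each cell type list's most abundant gene, the 15 higher and 15 lower genes of smallest p outside lists, the 8 and 8 of smallest p with the COL1A1 covariate, the 8 and 8 with the widest gap between the protocols (each at a mean TPM of at least 1), and 6 genes for transcript usage. The class II genes, the macrophage markers and MYOD1 were added after their values were seen.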

Additional observations from a re-analysis of the deposited data

Results flagged for a closer look

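In 13 of the 152 named genes, 1 of the 4 nociceptor libraries stood far from the other 3 on log2(TPM + 1), by Dixon's criterion, which chance meets in about 1 of 20 groups. In 7 of the 13 it was nociceptor library 4, the one with COL1A1 at 17.0 TPM: CLVS1 was at 1.52 TPM there, SEMA3A at 2.74, B2M at 651, FAS at 2.23, MYL12A at 237 and GNG5 at 55.6, all below the other 3 libraries, and SLC30A8 was at 0.498, above them. Library 1 was apart for SST, at 75.2 TPM, and DGCR6, at 10.2, both below the others, and for SDC2, at 348, above them. Library 2 was apart for SMIM45, at 0.573, and HAPLN1, at 6.52, and library 3 for NR5A2, at 0.979, all above the others. The groups of 3 proprioceptor libraries were not examined in this way.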

How the results depend on the processing

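No gene passed the adjusted threshold between the protocols under any alternative other than DESeq2, which called 31. At an unadjusted p under 0.05 there were 998 genes, but 3977 with limma's library weights, 460 with the COL1A1 covariate, and between 490 (without nociceptor library 3) and 2704 (without proprioceptor library 2) when single libraries were left out. It was 614 without nociceptor library 1, 533 without 2, 2458 without 4 and 600.0 without proprioceptor library 3. The share of these genes that was higher in proprioceptor libraries was 49.3%, but 33.8% in DESeq2, 25.8% in limma on log2(TPM + 1), where the median over all genes was -0.08 and not 0.03, 36.4% with the block by COL1A1, 39.1% in the 7 libraries alone, 32.8% without proprioceptor library 2, 60.1% without 1 and 69.5% without 3. Genes called for transcript usage numbered 8, then 5 with a stricter filter, 5 with the COL1A1 covariate and between 2 (without nociceptor library 2) and 32 (without nociceptor library 4), with 5 without nociceptor library 1. Same-numbered libraries did not deviate together (correlations of -0.20, 0.22 and -0.38), and the main fit did not pair them. So few correlations cannot exclude a batch shared by replicate number. With a replicate block in edgeR 0 genes were called, 1974 were at an unadjusted p under 0.05, and 12 were called for usage. The smallest edgeR adjusted p was 0.391 with that block and 0.665 without it.

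Of 2730 alternatives for named genes, 2721 kept the direction and 9 reversed it. Most of these genes were chosen by p or by gap in the same libraries, so keeping the direction was largely fixed by that choice. S100B became 0.54, HLA-C 0.11 and TAP1 0.12 with the COL1A1 covariate. DKK2 became -0.090 and GPR50 -0.49 with library weights. With single libraries left out, DKK2 ran from -1.34 (without proprioceptor library 2) to 2.66, GPR50 from -2.06 (without the same library) to 3.59, HLA-DPB1 from -1.40 to 0.037 (without nociceptor library 3) and PAPPA2 from -0.15 (without proprioceptor library 3) to 4.33. The cause was not tested. What depth limits was not tested, and 3 against 4 libraries limit the precision for all genes and transcripts. Proprioceptor library 1 had the fewest genes at a TPM of 1 or more (12066) and the lowest of limma's library weights (0.310).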
